A study of Mus musculus with 12 samples.

Results

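Histone genes were described in activated mouse T cells grown with or without azacitidine (AzaC), a nucleoside drug that DNA and RNA take up in place of cytidine and that traps DNA methyltransferases. The members were the genes of the deposited table whose symbol begins with H1f, H2ac, H2bc, H3c or H4c and a number, or with the older Hist1h to Hist4h names, and which have a table row that carries no other symbol. Where a gene had several such rows, the brightest was kept. This rule found 29 of 22180 genes: 8 H1 linker histones, 6 H2A, 8 H2B and 7 H4 genes. No H3 gene had a row of its own. The rule reads symbols only, and by textbook knowledge 23 of the 29 are replication-dependent. The other 6 are H1f10, a linker histone made outside S phase, the testis histones H1f6, H1f7, H2ac1 and H2bc1, and the oocyte linker histone H1f8.

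Replication-dependent histones are made in bulk while DNA is copied, because each new chromatid must be packed at once. Most of their genes lie in a few clusters of many near-identical copies and are read by the coactivator NPAT in a nuclear body of their own. Their mRNAs end in a stem-loop bound by SLBP in place of a poly(A) tail, and they are degraded when DNA synthesis stops. Among the members, 21 carried Hist1 names before the present nomenclature, 5 carried Hist2 names and 3 had no such name.

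The study used 12 Affymetrix arrays, with 4 groups of 3 arrays. Natural regulatory T cells (nTregs, which express the transcription factor Foxp3) came from B6.Foxp3GFP mice per the culture protocol, although the strain label of every sample is that of the cross with the DsRed strain. They were grown with Treg-depleted T cells of that cross at 1 part to 10 parts, so all groups came from such co-cultures and carry the Foxp3GFP reporter. Every culture received human interleukin-2 and anti-CD3/CD28 beads for 2 days, followed by 2 days of 1 µM AzaC or of PBS. Sorting gave nTregs (CD4+, DsRed-, Foxp3GFP+) and CD4 effector cells (CD4+, DsRed+, Foxp3GFP-, called CD4 cells here), which form the groups CD4 PBS, CD4 AzaC, nTreg PBS and nTreg AzaC. Ages and animal numbers are not in the sources used here. Nothing states that the 3 arrays of a group represent separate mice or cultures, so the p-values measure only the spread between these samples, which may be technical.

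The values are log2 signals (RMA, a standard summary of Affymetrix probes), with array medians between 6.67 and 6.80. The mean correlation of an array with the other 11 was lowest for nTreg PBS array 1, at 0.972, against 0.979 to 0.987 for the remaining arrays. All 8 Treg markers were higher in nTregs than in CD4 cells with PBS and with AzaC, Foxp3 by 4.29 and 3.08 on the log2 scale. Of 9 measured general T cell markers, 4 were lower in nTregs under PBS, among them Cd4 by −0.83, and 1 was higher with AzaC (limma, adjusted p under 0.05). Erythroid markers gave no call in any comparison, 1 of 8 B cell markers was higher in nTregs in both backgrounds, and among 13 markers of myeloid and dendritic cells AzaC raised 1 and lowered 1 in nTregs, and 1 was higher in nTregs than in CD4 cells with AzaC.

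The promoters of 4 members are printed because they show what the genes at the centre of the results have in front of their start: H1f2, which fell with AzaC in CD4 cells, H1f5, a linker histone gene of the same cluster whose differences did not pass, and H2ac10 and H2ac15, which were lower in nTregs under PBS. Each line gives the last 150 bases before the annotated start in RefSeq, build GRCm38.p6, 5′ to 3′ on the gene's strand. Capitals mark the CCAAT box, the TATA box (TATAAA) and the H1 box (AAACACA), each searched on both strands, so that ATTGG is a CCAAT box read from the opposite strand.
H1f2, chr13:23738657-23738806, plus strand: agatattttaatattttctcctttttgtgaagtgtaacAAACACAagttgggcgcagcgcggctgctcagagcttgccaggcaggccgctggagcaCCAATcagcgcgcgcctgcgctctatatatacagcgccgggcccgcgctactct
H1f5, chr13:21780626-21780775, minus strand: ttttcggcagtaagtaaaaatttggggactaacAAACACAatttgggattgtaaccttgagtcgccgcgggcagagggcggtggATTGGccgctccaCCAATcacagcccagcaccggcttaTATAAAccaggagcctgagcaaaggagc
H2ac10, chr13:23533725-23533874, plus strand: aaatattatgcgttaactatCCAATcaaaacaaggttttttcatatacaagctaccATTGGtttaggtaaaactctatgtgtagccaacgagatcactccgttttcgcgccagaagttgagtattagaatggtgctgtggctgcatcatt
H2ac15, chr13:21753913-21754062, minus strand: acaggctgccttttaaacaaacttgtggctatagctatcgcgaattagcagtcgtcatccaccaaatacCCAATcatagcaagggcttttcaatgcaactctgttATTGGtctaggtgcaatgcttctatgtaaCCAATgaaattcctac

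The H1 box, named for the linker histone promoters in which it was described, began 112 bases before the start in H1f2 and 117 bases before it in H1f5. A CCAAT box began 54 bases before the start of H1f2 and 53 bases before that of H1f5, and the latter gene also held TATAAA at 28. Only the exact letters TATAAA were searched, so similar stretches, such as tatatata in the H1f2 line, were not marked or counted. H2ac10 and H2ac15 had no H1 box here and held 2 and 3 CCAAT boxes.

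Over the 250 bases before the start, 27 of the 29 members could be matched to RefSeq promoters. CCAAT stood in 20 of 27, against 33.8% of all 32851 promoters of the same length: in all 6 H2A and all 7 H2B genes, in 6 of 8 H1 genes and in 1 of 6 H4 genes. The octamer ATTTGCAT, the motif of the POU factor Oct-1 in H2B promoters, stood in 5 of 7 H2B and 3 of 6 H2A genes and in no H1 or H4 gene, against 1.60% of all promoters. TATAAA stood in 13 of 27 against 12.4%, and AAACACA in 7 of 27, of which 4 are H1 genes, against 6.25%. The 250-base windows of H2ac1 and H2bc1 overlap each other, as do those of H2ac12 and H2bc12, so a match can be shared within these 2 pairs. These are matches of letters, not measured binding.

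The members ranged from some of the dimmest rows of the table to some of the brightest. On all 12 arrays 7 of them, H2ac12, H2bc1, H2bc9, H2bc14, H4c1, H4c2 and H4c17, lay below the array's 25th percentile, where a change of RNA is hard to see on an array. Histone genes also scattered more between arrays of a group than other genes: their median residual SD was 0.236 on the log2 scale, against 0.160 over all genes, and 21 of 29 lay above that all-gene median. On CD4 AzaC array 3, 17 of 29 members had their lowest value of the group and 1 its highest, with a median deviation of −0.14 from the group mean. On nTreg PBS array 1 the deviations of the members had an SD of 0.362, against 0.257 over all genes on that array, and on CD4 PBS array 3 they were 0.325 and 0.192.

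**Figure D1:**
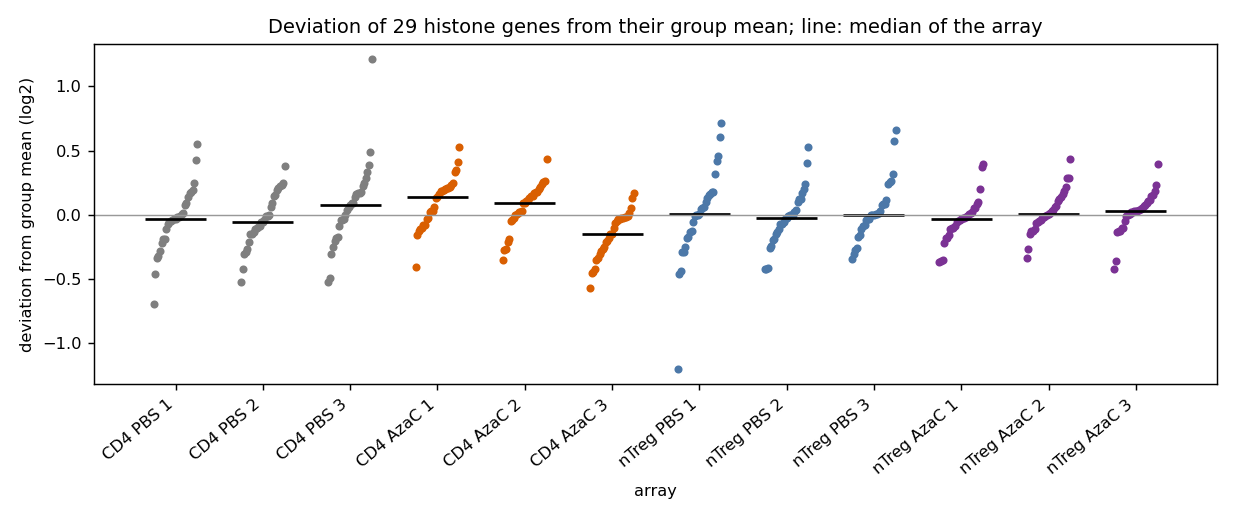
Deviation of each of the 29 histone genes from its own group mean on each of the 12 arrays, in log2 units; points are genes and the line is the median of the array. The points of CD4 AzaC array 3 lie mostly below 0 (median −0.14), and the lowest point of nTreg PBS array 1 is H2ac15.

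The first question was what AzaC did to histone RNA in CD4 effector cells. 1 member changed. H1f2 (formerly Hist1h1c, array row 17285859), which encodes a somatic linker histone, fell. Of the 29 members 1 passed at a limma adjusted p under 0.05 and it was lower, against 0.933% of all genes called lower and 1.76% called either way. No member rose past the test, against 0.830% of all genes. The median difference of the members was −0.08 (−0.14 with each array centred on its median and −0.0016 after a repeated quantile normalization), against 0.01 over all genes, with 15 of 29 members below 0, against 47.2% of all genes. The bulk arrays measure RNA per sorted sample, so fewer cells in S phase and less histone RNA per cell cannot be told apart here.

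H1f2 read 8.68, 8.64 and 8.92 on the CD4 PBS arrays and 7.50, 7.83 and 7.64 on the CD4 AzaC arrays. All 3 AzaC values lay below all 3 PBS values, with no overlap. The means were 8.75 ± 0.15 and 7.66 ± 0.17 (SD, n = 3), a difference of −1.09 (SE 0.12, 95% interval −1.34 to −0.84) that corresponds to a 2.13-fold lower signal, with a limma adjusted p of 0.00024. With any 1 of the 12 arrays left out the difference stayed between −1.18 and −1.01 and the adjusted p between 9.57e-05 and 0.00266. In the same comparison all 9 general T cell markers lay below 0, with a median of −0.24 and none called, and their mean log2 signal was 11.75 to 11.79 with PBS and 11.50 to 11.56 with AzaC. Of the 8 Treg markers 2 rose, Foxp3 by 1.57 and Il2ra by 0.59 (adjusted p = 0.000207 and 0.00383, limma), and the list's mean log2 signal was 9.32 to 9.37 with PBS and 9.76 to 9.83 with AzaC. The part of these markers in the H1f2 difference was not tested.

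The other linker histones did not follow H1f2 in CD4 cells. H1f5 read 7.56, 7.47 and 7.78 with PBS and 7.49, 7.57 and 6.85 with AzaC, groups that overlap, with a difference of −0.30. H1f1 read 6.16, 6.44 and 6.0 with PBS and 6.47, 6.72 and 6.54 with AzaC. Every AzaC value of H1f1 lay above every PBS value, but its difference of 0.37 did not pass (adjusted p = 0.186). Of the 8 H1 genes 6 had a difference above 0, and the class median was 0.15 (0.08 with centred arrays and after a repeated quantile normalization). Among these 6 are H1f6, H1f7, H1f8 and H1f10, which are not replication-dependent.

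The core histone genes with a row of their own showed no call in CD4 cells. The medians were 0.02 for 6 H2A genes (−0.04 with centred arrays), −0.18 for 8 H2B and −0.30 for 7 H4 genes. H4c14 read 6.79, 6.56 and 7.18 with PBS and 6.27, 6.51 and 6.35 with AzaC, without overlap (difference −0.47, adjusted p = 0.281). H4c17 read 3.82, 4.06 and 3.67 with PBS and 3.42, 3.43 and 3.35 with AzaC, also without overlap, at a signal below the 25th percentile of every array (difference −0.45, adjusted p = 0.0920). It passed once a single array of another group was left out (adjusted p = 0.0362 without nTreg PBS array 1), and with array weights, which give the more scattered arrays less influence (−0.54, adjusted p = 0.0073). H4c9 gave −0.30, with 9.15, 8.82 and 8.94 under PBS and 8.26, 8.91 and 8.84 with AzaC, which overlap.

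The 2 brightest members, H4c12 and H2bc3, gave intervals well within ±1. H4c12 read 12.74, 12.72 and 12.82 with PBS and 13.15, 12.73 and 12.93 with AzaC in CD4 cells, an overlap, with a difference of 0.18 (95% interval −0.05 to 0.41). H2bc3 read 11.74, 11.64 and 11.56 with PBS and 11.89, 11.68 and 11.41 with AzaC, which also overlap, with a difference of 0.01. For 26 of 29 members the 95% interval of the difference in CD4 cells lay within ±1, that is within a 2-fold change, against 98.0% of all genes; the 3 that did not were H1f2, H2ac15 and H4c8. H4c8 scattered because CD4 PBS array 3 read 6.06 and its other 11 values lay between 4.01 and 4.97.

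Without overlap between the 3 AzaC and the 3 PBS arrays of CD4 cells, 4 members were higher (background 11.4%) and 3 were lower (background 12.2%). At an unadjusted p under 0.05 stood 6 of 29, against 15.2% of all genes. The 4 higher were H1f1, H1f10, H2ac1 and H1f8, and the 3 lower were H1f2, H4c14 and H4c17. All 6 members that are not replication-dependent had differences above 0 (median 0.18, and 0.11 with centred arrays), as had 11707 of all 22180 genes. Of these 6 members 0 were called, and H1f6 and H2bc1 lay below the array's 25th percentile on 11 and 12 of the 12 arrays. Without the 6 the median of the remaining 23 was −0.17, with 15 below 0.

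**Figure D2:**
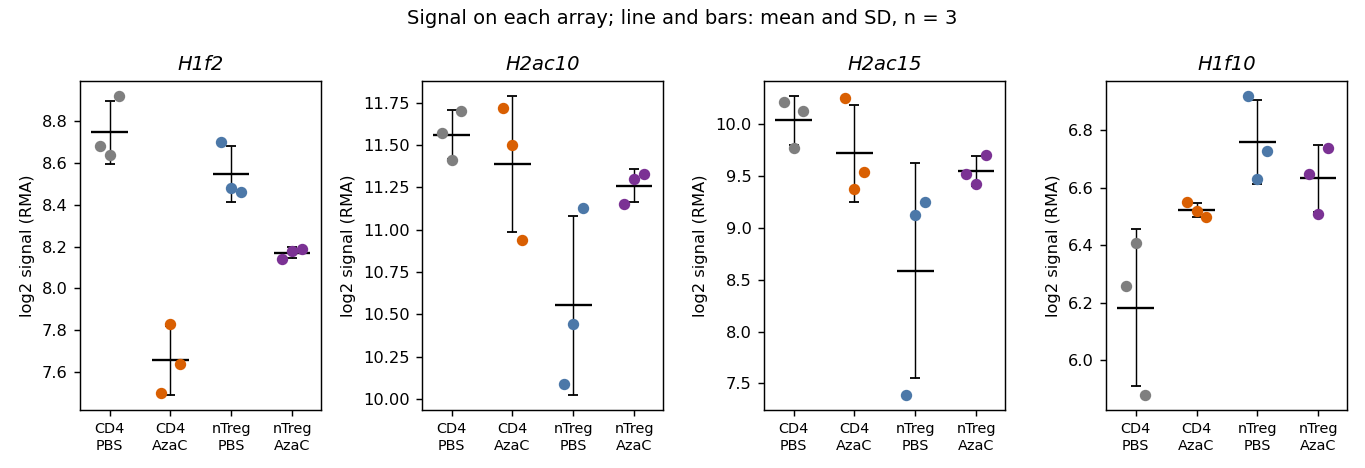
Log2 signal (RMA) of H1f2, H2ac10, H2ac15 and H1f10 on each of the 12 arrays, with the mean and SD of each group of 3; each panel has its own axis. The 3 CD4 AzaC points of H1f2 lie between 7.50 and 7.83, below all other arrays, and the nTreg PBS point of H2ac15 at 7.39 lies far under the rest of its group.

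In nTregs AzaC changed no histone gene at the same threshold. The count was 0 of 29 in limma, against 2.02% of all genes called (1.42% higher and 0.600% lower), and 6 of 29 at an unadjusted p under 0.05, against 16.8% of all genes. The median difference was 0.03 (0.09 with centred arrays and 0.06 after a repeated quantile normalization) beside −0.04 over all genes, with 15 of 29 members above 0, against 41.9% of all genes. The H2A genes stood highest, with a median of 0.50 over 6 genes, and the H1, H2B and H4 medians were −0.08, 0.03 and 0.07 (−0.02, 0.09 and 0.13 with centred arrays and −0.01, 0.09 and 0.06 after a repeated quantile normalization).

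Among the H2A genes, H2ac21 (formerly Hist2h2ab, the brighter of its 2 rows) read 6.72, 6.58 and 7.03 under PBS and 7.62, 7.27 and 7.37 with AzaC in nTregs. The AzaC values all lay above the PBS values, with a difference of 0.64 (SE 0.17) and an adjusted p of 0.0695. It passed without CD4 AzaC array 3 (adjusted p = 0.0299), without nTreg PBS array 3 (0.77, adjusted p = 0.0457) and with array weights (adjusted p = 0.0183). H2ac20 (formerly Hist2h2ac) read 6.80, 6.60 and 6.83 under PBS and 7.01, 7.22 and 7.12 with AzaC, without overlap, and gave 0.37 with an adjusted p of 0.308.

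H2ac10 (formerly Hist1h2af) read 10.09, 10.44 and 11.13 under PBS and 11.15, 11.30 and 11.33 with AzaC in nTregs. The groups did not overlap, but the highest PBS value lay close under the lowest AzaC value. The difference was 0.71 (SE 0.23, adjusted p = 0.140), and it was 1.00 with an adjusted p of 0.0209 without nTreg PBS array 3. It was lowest, at 0.48, without nTreg PBS array 1, the array that reads 10.09. With any 1 array left out the limma adjusted p ran from 0.0209 to 0.349.

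H2ac15 (formerly Hist1h2ak) read 7.39, 9.12 and 9.25 under PBS and 9.52, 9.42 and 9.70 with AzaC, again without overlap. The difference of 0.96 (adjusted p = 0.217) was 0.36 without nTreg PBS array 1, the array that reads 7.39. H2ac12, the dimmest H2A gene, read 3.06, 3.32 and 3.21 under PBS and 3.05, 3.21 and 3.19 with AzaC, near the floor of the table on every array.

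H1f2 was lower with AzaC in nTregs as well, without passing the test. It read 8.70, 8.48 and 8.46 under PBS and 8.14, 8.18 and 8.19 with AzaC, without overlap, for a difference of −0.38 (95% interval −0.63 to −0.13, adjusted p = 0.122). With array weights H1f1 (0.42, adjusted p = 0.0333) and H1f2 (−0.32, adjusted p = 0.0491) passed too. H1f1 read 6.22, 6.18 and 6.08 under PBS and 6.42, 6.74 and 6.58 with AzaC. Its AzaC values lay above its PBS values in both populations, with adjusted p of 0.120 in nTregs and 0.186 in CD4 cells. H1f5 read 8.35, 7.22 and 7.33 under PBS and 7.47, 7.64 and 7.40 with AzaC, which overlap, for −0.14, and without nTreg PBS array 1, the array that reads 8.35, it gave 0.22.

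The bright H2B and H4 genes gave small differences in nTregs. H4c12 read 12.61 on all 3 PBS arrays and 12.72, 12.65 and 12.73 with AzaC, a difference of 0.09 (95% interval −0.14 to 0.32). H2bc3 read 11.44, 11.71 and 11.69 under PBS and 11.37, 11.67 and 11.60 with AzaC, which overlap, for −0.06. H2bc18 read 7.97, 8.58 and 8.67 under PBS and 8.57, 9.04 and 8.65 with AzaC, also with overlap, for 0.35 (adjusted p = 0.354). H4c9 read 9.52, 8.66 and 8.57 under PBS and 9.03, 8.83 and 8.97 with AzaC, so that the AzaC values lie inside the range of the PBS values, for 0.03. The 95% interval lay within ±1 for 26 of 29 members, against 97.2% of all genes, and the 3 outside it were H2A genes. Without overlap, 7 members were higher (background 11.0%) and 2 lower (background 13.5%).

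Of the 8 Treg markers 1 rose in nTregs, Itgae (0.96, adjusted p = 0.00018, limma). Both CD8 markers rose in the same comparison, Cd8a by 1.39 (adjusted p = 0.0018) and Cd8b1 by 0.72 (adjusted p = 0.0213, limma). Their mean log2 signal lay between 8.35 and 8.96 in nTreg PBS and between 9.62 and 9.75 in nTreg AzaC, and it was 8.11 to 8.55 in CD4 cells of either treatment. Neither marker was near the floor in any group, and their part in the histone values was not tested.

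**Figure D3:**
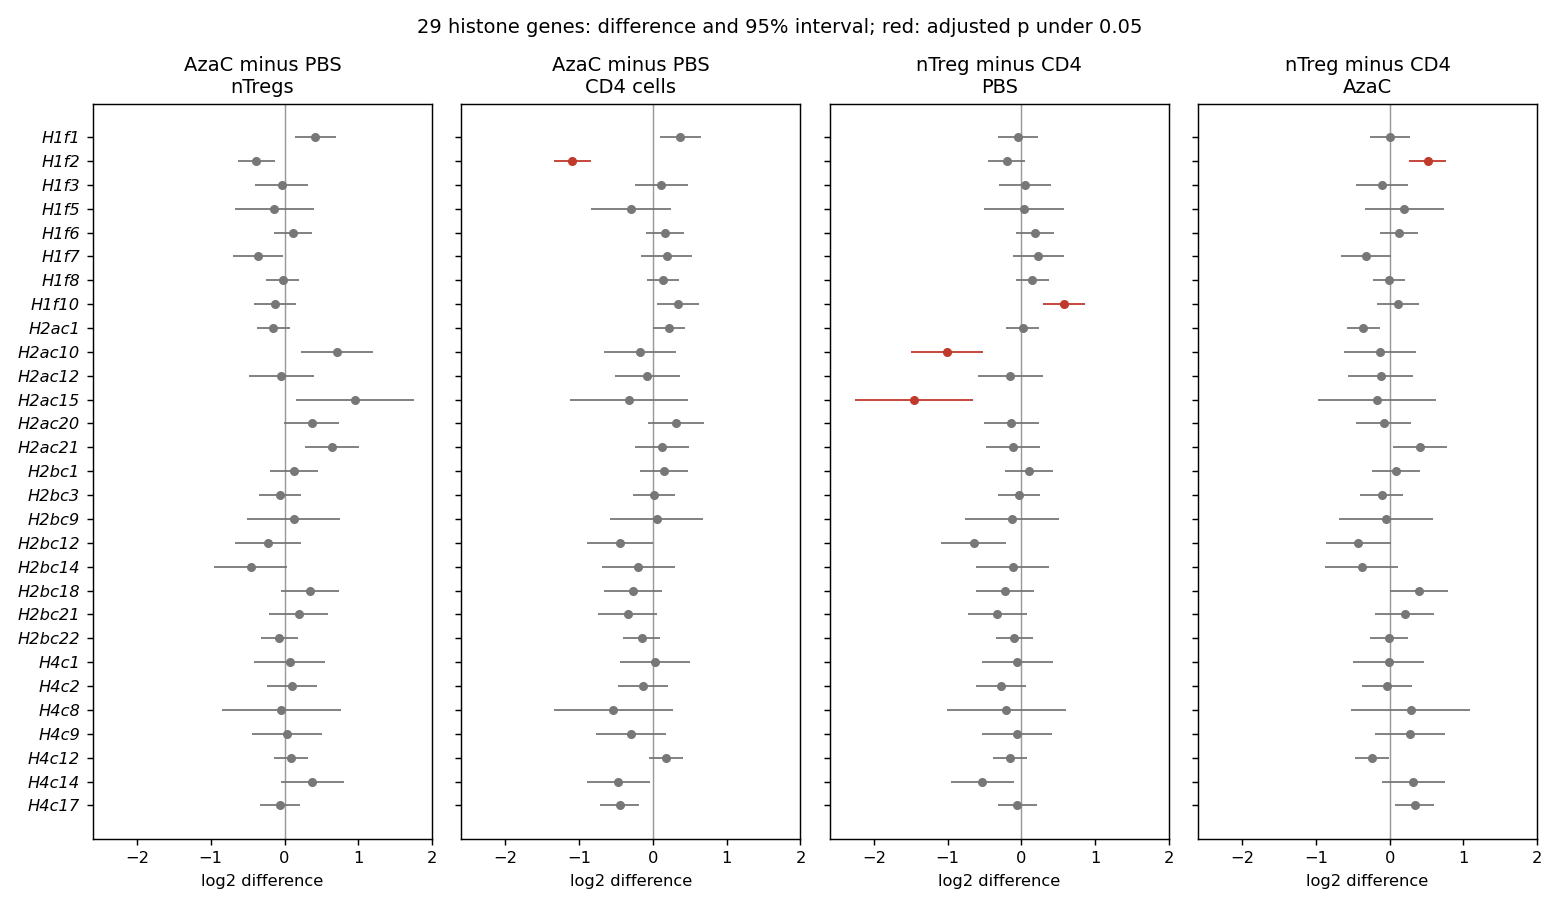
Log2 difference and 95% interval of each of the 29 histone genes in 4 comparisons, AzaC minus PBS in nTregs and in CD4 cells and nTreg minus CD4 under PBS and with AzaC; red marks a limma adjusted p under 0.05. H1f2 in CD4 cells (−1.09) and H2ac15 between the populations under PBS (−1.45) stand farthest from 0 among the red points.

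Whether AzaC acted differently on histone RNA in the 2 populations was tested by the difference between the 2 effects, nTreg minus CD4. No member passed: 0 of 29 in limma, against 0.203% of all genes, with 10 of 29 at an unadjusted p under 0.05, against 17.5% of all genes. H1f2 came nearest, with 0.71 (SE 0.17, 95% interval 0.36 to 1.07), an unadjusted p of 0.000717 and an adjusted p of 0.110, and it passed with array weights (adjusted p = 0.0118). The call for H1f2 in CD4 cells and its absence in nTregs therefore do not show that the populations differ. H2ac10 gave 0.88 (adjusted p = 0.222), H2ac15 1.28 (adjusted p = 0.249) and H4c14 0.85 (adjusted p = 0.204). The median was 0.07 over all members and 0.22 over the 23 replication-dependent members, beside −0.04 over all genes. Of the 29 members 19 lay above 0, against 45.4% of all genes. All 19 were among the 23 replication-dependent members. Of the other 6 members 0 lay above 0, and 2 did under both other scalings.

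Under PBS, nTregs and CD4 cells from the same kind of co-culture differed in 3 histone genes, against 8.01% of all genes called. H2ac10 and H2ac15 were lower in nTregs and H1f10 was higher, in limma, so 2 of 29 members were lower, against 4.12% of all genes, and 1 was higher, against 3.90%. At an unadjusted p under 0.05 stood 5 of 29, against 23.0% of all genes. Of the 29 members 21 had a difference below 0, with a median of −0.11 beside 0.03 over all genes, of which 45.5% lay below 0, and 25 intervals lay within ±1, against 94.8% of all genes. All 7 H4 genes, 7 of 8 H2B genes and 5 of 6 H2A genes were below 0, with class medians of −0.15, −0.12 and −0.14; after a repeated quantile normalization these were 6 of 7, 6 of 8 and 6 of 6. The H1 genes had a median of 0.10 (0.05 under both other scalings), and H1f6, H1f7, H1f8 and H1f10 among them are not replication-dependent. Of the 23 replication-dependent members 21 lay below 0, with a median of −0.14. With centred arrays 23 did, and after a repeated quantile normalization 20. The other 6 members all lay above 0, with a median of 0.17 (5 of 6 above 0 under both other scalings). This comparison shares the CD4 PBS arrays with the AzaC comparison in CD4 cells and the nTreg PBS arrays with that in nTregs.

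For H2ac10 (array row 17285819), an H2A gene, the values in CD4 PBS were 11.57, 11.41 and 11.70, and those in nTreg PBS were 10.09, 10.44 and 11.13. All nTreg values lay below all CD4 values. The means were 11.56 ± 0.15 and 10.55 ± 0.53 (SD, n = 3), a difference of −1.01 (SE 0.23, 2.01-fold, adjusted p = 0.0146 in limma). It was no longer called without CD4 PBS array 3 (adjusted p = 0.0651).

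H2ac15 (array row 17291001), also an H2A gene, read 10.21, 9.77 and 10.13 in CD4 PBS and 7.39, 9.12 and 9.25 in nTreg PBS. The groups did not overlap, but 1 nTreg array stood far below the other 2. The means were 10.04 ± 0.23 and 8.59 ± 1.04 (SD, n = 3) and the difference was −1.45 (SE 0.37, 2.73-fold, adjusted p = 0.0290 in limma). Without nTreg PBS array 1 it was −0.85 (adjusted p = 0.0269), and the call was lost without CD4 PBS array 1, 2 or 3 (adjusted p = 0.0896, 0.0524 and 0.0973).

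H1f10 (array row 17468702), a linker histone, is the member of the 3 that is not tied to DNA replication. It read 6.26, 6.41 and 5.88 in CD4 PBS and 6.92, 6.63 and 6.73 in nTreg PBS, without overlap. The means were 6.19 ± 0.27 and 6.76 ± 0.15 (SD, n = 3), a difference of 0.57 (SE 0.13, 1.49-fold, adjusted p = 0.0161 in limma). Without CD4 PBS array 3 it was 0.42 (adjusted p = 0.0608).

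All 3 calls were lost when the spread was estimated from these 6 arrays alone (adjusted p = 0.0715 for H2ac10, 0.135 for H2ac15 and 0.108 for H1f10). H2bc12 (an H2B gene) came next, with 8.29, 8.76 and 8.78 in CD4 PBS and 8.06, 7.55 and 8.28 in nTreg PBS, without overlap, a difference of −0.65 (adjusted p = 0.0732) that passed with array weights (−0.75, adjusted p = 0.0266) and without nTreg PBS array 3 (−0.80, adjusted p = 0.0384). H4c14 passed without nTreg PBS array 2 (−0.73, adjusted p = 0.0386). In all, 4 members were lower without overlap (background 13.2%) and 1 was higher (background 13.5%).

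With AzaC, 1 member differed between the populations, against 6.75% of all genes called. H1f2 read 7.50, 7.83 and 7.64 in CD4 cells and 8.14, 8.18 and 8.19 in nTregs, without overlap, and was 0.51 higher in nTregs (SE 0.12, 1.43-fold, limma adjusted p = 0.0157). Thus 1 member of 29 was called higher, against 4.57% of all genes, and 0 were called lower, against 2.19%; 6 stood at an unadjusted p under 0.05, against 20.5%. The call was lost without CD4 AzaC array 1 (adjusted p = 0.0823) or 3 (0.0568), without nTreg AzaC array 2 (0.0569) or 3 (0.0651), and after a repeated quantile normalization (0.42, adjusted p = 0.0641). Both CD8 markers were higher in nTregs in this comparison, Cd8a by 1.36 and Cd8b1 by 1.27 (adjusted p = 0.00045 and 7.85e-05), and their part in it was not tested.

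The H2A genes that separated the populations under PBS did not pass with AzaC, and the difference between the 2 comparisons is the interaction given above. H2ac10 read 11.72, 11.50 and 10.94 in CD4 cells and 11.15, 11.30 and 11.33 in nTregs, which overlap, and H2ac15 read 10.25, 9.37 and 9.54 against 9.52, 9.42 and 9.70, which overlap too. Their differences were −0.13 and −0.17, with 95% intervals of −0.61 to 0.36 and −0.97 to 0.63. H2ac1, the testis H2A gene, read 7.02, 7.12 and 7.15 in CD4 AzaC and 6.79, 6.70 and 6.73 in nTreg AzaC, without overlap, at −0.36 (adjusted p = 0.0552). It passed with the dim genes left out (adjusted p = 0.0429), with only these 6 arrays in the fit (0.0320), with a variance trend and robust moderation (0.0435), with array weights (0.0086) and without nTreg PBS array 1 (0.0258). H1f7 was lower in nTregs without CD4 PBS array 3 (−0.32, adjusted p = 0.0450). The median of the members was −0.01 beside −0.04 over all genes, with 13 of 29 above 0, against 42.3% of all genes. With centred arrays the median was 0.06 and after a repeated quantile normalization 0.07, with 18 of 29 above 0 in each. Of the members 28 of 29 had intervals within ±1, against 95.9% of all genes, and 5 members were higher (background 15.1%) and 4 lower (background 17.2%) without overlap.

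Across the 4 groups H1f2 was lowest in CD4 AzaC (mean 7.66), followed by nTreg AzaC (8.17 ± 0.03), nTreg PBS (8.55 ± 0.13) and CD4 PBS (8.75 ± 0.15). Of these neighbours, nTreg AzaC and nTreg PBS did not overlap but did not pass, and nTreg PBS and CD4 PBS overlapped and differed by −0.20 (adjusted p = 0.326). The dimmest members, H1f6 among the H1 genes (5.32 to 5.85 over the 12 arrays), H2bc1 among the H2B genes (3.06 to 3.79) and H4c17 among the H4 genes (3.35 to 4.06), had no call in the unweighted fit of all 12 arrays. Between the populations with AzaC, H4c17 was called higher in nTregs with array weights (0.36, adjusted p = 0.0260) and with only these 6 arrays in the fit (0.34, adjusted p = 0.0366). H1f6 and H2bc1 are testis genes. For H1f6 the AzaC differences were 0.17 in CD4 cells and 0.11 in nTregs, and for H2bc1 0.15 and 0.13.

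Because histone copies are so alike, 37 of the 66 rule genes that the table names have no row of their own, all H3 genes among them. They stand in 38 rows with several symbols, of which 35 hold distinct values and 30 name only genes of the rule. These rows cannot be assigned to a gene, and neighbouring rows can list the same symbols, so they are not independent of one another. They were tested in a fit over all 25335 rows with a symbol.

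In CD4 cells AzaC gave no call among the 35 rows (0 in limma, 11 at an unadjusted p under 0.05, against 1.64% and 14.9% of all rows). Their median difference was −0.18, 27 were below 0, and 10 were lower without overlap (background 11.7%) and 1 higher (background 11.3%). A row shared by H2bc8, H2bc6 and H2bc4 read 9.48, 9.59 and 10.01 with PBS and 8.72, 8.82 and 7.91 with AzaC, without overlap (−1.21, SE 0.33, adjusted p = 0.0889), and the other row of these 3 symbols gave −0.72. A row that names the linker histone gene H1f4 beside these 3 symbols read 7.94, 8.27 and 8.57 with PBS. With AzaC it read 7.76, 7.84 and 7.86, also without overlap (−0.44, SE 0.14, limma adjusted p = 0.157). It lay below the array's 25th percentile on 0 arrays. A row of 8 H3 symbols, the first of them H3c13, read 7.36, 7.64 and 8.05 with PBS and 6.49, 6.86 and 7.06 with AzaC, again without overlap (−0.88, SE 0.21, adjusted p = 0.0599). The other 7 rows of the same 8 symbols ran from −0.96 to 0.07. The rows at these ends lay below the array's 25th percentile on 11 and 12 of the 12 arrays. A row of 13 symbols, all but 1 of them H4 genes of the rule, read 6.03, 6.44 and 7.01 with PBS and 5.38, 5.36 and 5.07 with AzaC (−1.22, SE 0.32, adjusted p = 0.0772). The other 3 rows of the same 13 symbols gave −0.53, −0.45 and −0.03, so rows that name the same genes gave unlike values. Their signal is low: these 3 rows lay below the array's 25th percentile on 11, 12 and 12 of the 12 arrays. The row at −1.22 lay below it on 8, all CD4 AzaC arrays among them. All 9 H2A rows lay below 0 (8 of 9 after a repeated quantile normalization), with a median of −0.19, and 7 of them name the same 10 symbols. The brightest gave −0.01, −0.08 and −0.02. The largest falls, −0.53 and −0.52, came from rows below the array's 25th percentile on 12 and 10 of the 12 arrays. The next largest, −0.47 (SE 0.15, limma adjusted p = 0.157), came from a row of the same 10 symbols below that percentile on 0 arrays. That row read 7.75, 7.46 and 7.15 with PBS and 7.20, 6.89 and 6.86 with AzaC, which overlap. The falls were therefore not confined to dim rows.

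In nTregs the same 35 rows had a median of 0.09 (0.15 with centred arrays), with 22 above 0, and 0 calls in limma, 7 at an unadjusted p under 0.05 (1.76% and 16.2% of all rows). All 9 H2A rows lay above 0, with a median of 0.27. The difference between the AzaC effects had a median of 0.24 (0.37 with centred arrays) over the 35 rows and was called in 0 of them, with 9 at an unadjusted p under 0.05 (0.221% and 17.1% of all rows). The H3 rows had medians of −0.19 in CD4 cells and 0.02 in nTregs (0.09 with centred arrays and 0.07 after a repeated quantile normalization).

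Between the populations under PBS, 28 of the 35 rows were below 0, with a median of −0.24, and 1 was called, lower in nTregs, against 3.73% of all rows called lower and 7.33% called either way. It was 1 of the 4 rows of 13 mostly H4 symbols, the one printed above, with 5.54, 4.50 and 5.68 in nTreg PBS against the CD4 values above (−1.25, SE 0.32, adjusted p = 0.0294). That row lay below the array's 25th percentile on 8 of the 12 arrays, all nTreg PBS arrays among them. The other 3 rows of its 13 symbols lay above 0, at 0.03, 0.21 and 0.50, the last without overlap. They were below that percentile on 11, 12 and 12 arrays. The 5 H4 rows had a median of 0.03. With AzaC 1 row was called, against 4.22% of all rows called higher and 6.34% called either way, the H3 row named above, which read 8.05, 7.27 and 7.62 in nTregs and was 0.84 higher there than in CD4 cells (SE 0.21, adjusted p = 0.0317). The other 7 rows of these 8 symbols ran from −0.23 to 0.22. The rows at these ends lay below the array's 25th percentile on 12 and 11 arrays. The 12 H3 rows had a median of −0.02, with 6 above and 6 below 0.

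**Figure D4:**
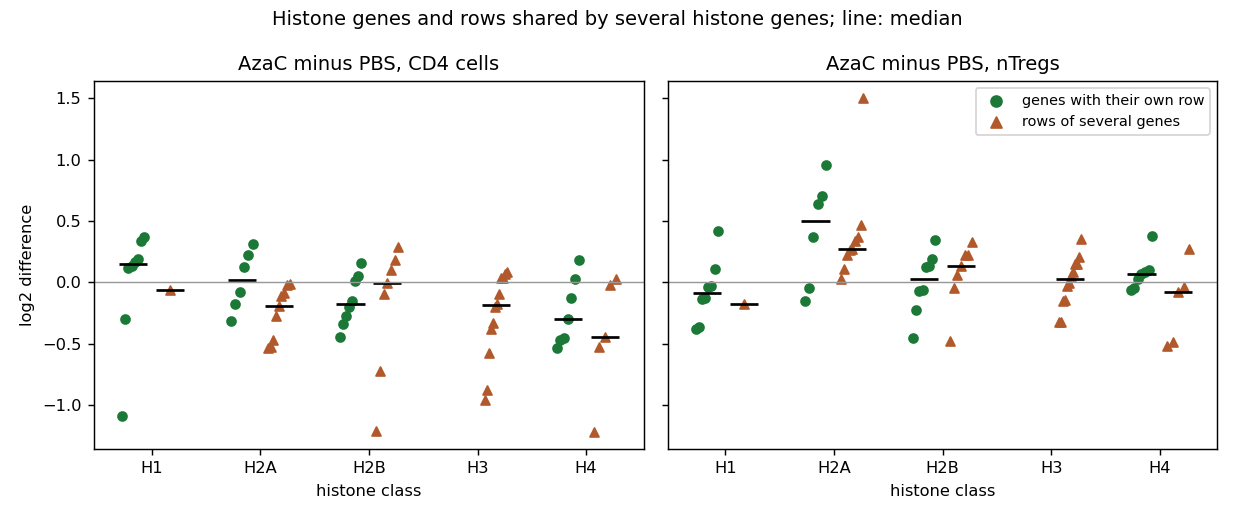
Log2 difference AzaC minus PBS by histone class, in CD4 cells (left) and nTregs (right); circles are the 29 genes with a row of their own, triangles the rows shared by several histone genes, and lines the medians of each kind. H3 has triangles only, and the 9 H2A triangles lie below 0 in CD4 cells (8 of 9 after a repeated quantile normalization) and above 0 in nTregs. The medians of these triangles are −0.19 and 0.27, and 7 of them name the same 10 symbols.

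Genes that make and process histone mRNA gave no call with AzaC. Of 36 listed genes for histone transcription and 3′ processing 32 were measured, and 0 were called in either population (4 at an unadjusted p under 0.05 in each, against 16.8% of all genes in nTregs and 15.2% in CD4 cells). The medians were 0.15 in nTregs, with 25 of 32 above 0, and −0.05 in CD4 cells, with 10 above 0. After a repeated quantile normalization they were 0.06 and 0.03, with 18 of 32 above 0 in each, and with centred arrays 0.21 and −0.12. Slbp, the stem-loop binding protein, differed by 0.19 in nTregs and 0.09 in CD4 cells (adjusted p = 0.425 and 0.748). Npat, the coactivator of the histone clusters, differed by 0.02 and 0.14, its partner Casp8ap2 by −0.03 in both, and Hinfp, the factor of H4 promoters, by 0.08 and −0.02. Under PBS 3 of the 32 were lower in nTregs, against 4.12% of all genes, namely the S phase regulator E2f2 (−0.90, adjusted p = 0.0042), Ccna2, which encodes cyclin A2 (−0.51, adjusted p = 0.0186), and the cap-binding gene Ncbp1 (−0.50, adjusted p = 0.0244). With AzaC 2 were lower, against 2.19% of all genes, Ccna2 (−0.59, adjusted p = 0.0077) and Ccne1, which encodes cyclin E1 (−0.42, adjusted p = 0.0391).

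Of 26 listed histone chaperones and modifiers of new histones 23 were measured. AzaC gave 2 calls in nTregs, both higher, and 2 in CD4 cells, 1 in each direction, against 2.02% and 1.76% of all genes. With AzaC Mcm2, a subunit of the replicative helicase that also binds histones, rose in nTregs (0.69, adjusted p = 0.0143) and in CD4 cells (0.58, adjusted p = 0.0395). Chaf1b, a subunit of the chromatin assembly factor CAF-1, rose in nTregs (0.53, adjusted p = 0.0244), and Daxx, a chaperone of H3.3, fell in CD4 cells (−0.62, adjusted p = 0.0416). Between the populations 2 of the 23 were lower in nTregs under PBS, against 4.12% of all genes, and 2 with AzaC, against 2.19%. Asf1b, which hands H3 and H4 to CAF-1, was lower in both (−0.42, adjusted p = 0.0218, and −0.49, adjusted p = 0.0087). Chaf1b was lower under PBS (−0.40, adjusted p = 0.0377) and Mms22l, a gene of replication fork repair, with AzaC (−0.42, adjusted p = 0.0306). Of 25 listed replication-independent histones 8 had a row of their own, and AzaC gave 0 calls among them in limma, against 2.02% of all genes in nTregs and 1.76% in CD4 cells. Below an unadjusted p of 0.05 stood 4 of the 8 in nTregs (all genes 16.8%) and 3 in CD4 cells (all genes 15.2%). Between the populations under PBS 1 of the 8 was called higher in nTregs and 1 lower, against 3.90% and 4.12% of all genes. With AzaC 0 were called higher and 1 lower, against 4.57% and 2.19%. The lower gene was Cenpa, the centromeric H3 variant, both under PBS (−0.42, adjusted p = 0.0227) and with AzaC (−0.38, adjusted p = 0.0408).

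The cell cycle genes give the setting of these values. Of 35 measured DNA replication genes 2 rose with AzaC in nTregs, Tk1 (thymidine kinase, 0.75, adjusted p = 0.0029) and Mcm2. In CD4 cells 3 rose, the origin licensing gene Cdc6 (0.64, adjusted p = 0.0146), Mcm2 and Mcm6 (0.47, adjusted p = 0.0410). Of all genes 1.42% were called higher in nTregs and 0.830% in CD4 cells. The list medians were 0.24 and 0.15, beside histone member medians of 0.03 and −0.08. Both list medians stayed above 0 under the other scalings, but their order did not hold: they were 0.30 and 0.08 with centred arrays and 0.14 and 0.23 after a repeated quantile normalization. Of 23 measured G2 and M phase genes 2 fell in nTregs, against 0.600% of all genes, and 1 in CD4 cells, against 0.933%, with medians of −0.25 and −0.22 (−0.34 and −0.14 after a repeated quantile normalization). Pcna, the sliding clamp, differed by 0.12 and 0.11 and the proliferation marker Mki67 by −0.04 and −0.01, none of them called.

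Between the populations under PBS 14 of the 35 DNA replication genes and 17 of the 23 G2 and M phase genes were lower in nTregs and 0 were higher, against 4.12% of all genes lower. Rrm2, a subunit of ribonucleotide reductase, differed by −0.71 (adjusted p = 0.0065) and Mki67 by −0.41 (adjusted p = 0.0332). With AzaC 7 and 15 of these genes were lower in nTregs, against 2.19% of all genes. The list medians under PBS were −0.41 and −0.48, beside −0.11 for the histone members, and the part of the cell cycle genes in the histone values was not tested.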

How the data were processed

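RNA was hybridised to 12 Affymetrix arrays with the WT Pico kit, per the labels. Per the submitters' processing notes, the authors used Affymetrix Expression Console and its RMA method (no versions named), and the deposited values are log2. RMA subtracts background, equalises the arrays by quantiles and summarises the probes. Histone copies are near-identical, and neither how far probes separate them nor the authors' genome build is stated in the sources used here.

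Rows with 1 symbol were kept and the brightest row per gene taken, which left 22180 genes, without a filter. The model, 4 group means over 12 arrays (8 residual degrees of freedom), was fitted by limma 3.58.1 (R 4.3.3), and p-values were adjusted by Benjamini-Hochberg over all genes, with a threshold of 0.05; the 3 arrays per group limit the precision. The code was tested on simulated data. The named genes were the members that passed, the 2 brightest and the dimmest of each class and up to 4 genes per list; other members were named after their values were seen. The members and lists were chosen with earlier results of these data known. The alternatives tried were leaving dim genes out, 2 scalings, other row rules, other fits and leaving out each array.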

Additional observations from a re-analysis of the deposited data

How the results depend on the processing

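No alternative turned the direction of a called gene, and H1f2 passed in CD4 cells under every alternative tried. With 1 array left out, the members called numbered 0 to 2 for AzaC in nTregs, 1 to 2 for AzaC in CD4 cells, 0 to 0 for the interaction, 0 to 4 between the populations under PBS and 0 to 2 with AzaC, and the members' median differences ran from −0.0316 to 0.111, −0.167 to 0.101, −0.0663 to 0.170, −0.132 to −0.0645 and −0.0737 to 0.0670. With dim genes left out the median for AzaC in CD4 cells was 0.0106 over the 21 genes kept, and 2 members were called between the populations with AzaC, as they were with a variance trend and robust moderation. Arrays centred on their medians moved the interaction's median from −0.04 to 0.09 over all genes and from 0.07 to 0.20 over the members, which was 0.11 after a repeated quantile normalization. That normalization left 0 calls between the populations with AzaC and a median of 0.0737. With every row tested (60 rows) the interaction's median was 0.23, and 2 rows were called with AzaC. With only the compared groups in the fit, 0 members were called under PBS and 3 with AzaC. Array weights gave 3 calls in nTregs, 2 in CD4 cells, 1 for the interaction and 5 between the populations with AzaC. Without the members that are not replication-dependent the medians were −0.17 in CD4 cells and 0.22 for the interaction. Same-numbered arrays did not deviate together over all genes (correlations from −0.10 to 0.19), so the numbers were not taken to pair them. Over the members alone the correlations ran from −0.32 to 0.52, and for CD4 AzaC with nTreg AzaC they were 0.11, 0.52 and 0.35. A replicate block kept the counts at 0, 1, 0, 3 and 1 and the adjusted p of H1f2 in CD4 cells at 0.000982. The causes of these shifts were not tested.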
